A study of Homo sapiens with 10 samples.

Results

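The pentose phosphate pathway draws glucose carbon away from glycolysis, and its enzymes supply cells with NADPH and with ribose 5-phosphate. Its oxidative branch oxidizes sugar phosphates in the cytosol and passes the electrons to NADP+, and its non-oxidative branch moves carbon units between sugar phosphates in both directions. Cytosolic isocitrate dehydrogenase is a separate source of NADPH in the same compartment. Cells spend NADPH on the reduction of disulfides such as glutathione disulfide and on the synthesis of fatty acids and sterols.

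The transcripts of 7 such enzymes were followed in HEK293T cells that had received different amounts of cysteine. PGLS and PGD encode enzymes of the oxidative branch, RPIA, RPE, TKT and TALDO1 those of the non-oxidative branch, and IDH1 the cytosolic isocitrate dehydrogenase. These genes were taken by name for the roles of their products by a rule that uses no measured value, although earlier results of these data were known when they were chosen, and they do not make up every gene of the pathway. They are 7 of 78894 gene identifiers in the table, and all 7 were among the 29045 genes tested.

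HEK293T is an established line of human embryonic kidney cells, and a single line was used for all 10 libraries, with no genetic alteration named in the sample labels. Poly(A) RNA was sequenced after 24 h in medium without cysteine (0X, called cysteine-free, 2 libraries), with the usual amount (1X, called complete, 4 libraries) or with 10X the usual amount (called excess, 4 libraries). The labels describe the libraries of a group as biological replicates, and the design text of the series names only the normal and the cysteine-free medium. The study gives another number of replicates for its RNA-seq than the libraries held here and does not say which it used, so all labelled libraries entered. The comparison of cysteine-free with complete medium asks which transcripts differ between these media, and the excess libraries extend the range of supply upwards. The study's methods describe more than one way of starving cells of cysteine. In one, the starvation medium had dialyzed serum and a set glucose level, and the control was complete DMEM with undialyzed serum. In another, cysteine was varied in the same base medium. For the RNA-seq the methods only refer back to an amino acid starvation treatment. Whether serum or glucose differed along with cysteine is therefore not known.

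Between 34836014 and 61654861 reads per library fell on genes. The lowest count for any of the 7 genes in any library was 1113 reads, for RPIA, and the highest was 19429, for TKT. The table holds normalized counts, that is, reads per gene divided by a size factor that puts the libraries on a common scale, so a value compares libraries for 1 gene but not genes of different length. Of 10 markers of embryonic kidney and of HEK293 cells, 9 were present at a mean normalized count of 10 or more over the 10 libraries. PAX8 was below that level. Endothelial markers were present for 0 of 3 genes and blood markers for 1 of 4, with CD3E and HBB at 0 in all libraries. Fibroblast markers reached that level for 3 of 4 genes, with summed normalized counts of 697 and 852 without cysteine, 877 to 1076 in complete medium and 669 to 737 in excess, and hepatocyte markers for 1 of 3. The part of those fibroblast genes in the results was not tested. Transcripts of mitochondrial DNA took 5.15 to 5.71% of the reads in cysteine-free medium, 4.51 to 5.05% in complete medium and 0.117 to 0.146% in excess medium. In bulk RNA, fewer cells of a kind and less RNA per cell cannot be told apart.

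Promoter sequences were read for the 7 genes, because the antioxidant response element is a known control sequence of several NADPH-forming enzymes. The core TGACNNNGC was searched on both strands of windows from 250 bases before to 50 bases after each RefSeq transcription start. The table holds 8 windows for the 7 genes, since IDH1 has 2 starts. The core occurred in 3 of the 8, those of PGD, RPE and IDH1, and in 13.3% of 35116 windows of all genes. The matching stretches of 99 bases are printed 5′ to 3′ on the strand of the gene, from RefSeq and the GRCh38.p14 assembly, with the 9 bases of the match in capitals. The PGD match lies 201 bases before the start and reads on the opposite strand, and those of RPE and IDH1 lie 151 and 143 bases before the start on the gene strand. The PGD stretch is at chr1:10398818-10398916 on the plus strand, in an intron of a longer PGD transcript. The RPE stretch is at chr2:210002442-210002540 on the plus strand, upstream of the gene. The IDH1 stretch is at chr2:208255161-208255259 on the minus strand, in an intron of longer IDH1 transcripts and partly within the first exon of the antisense gene IDH1-AS1.
PGD: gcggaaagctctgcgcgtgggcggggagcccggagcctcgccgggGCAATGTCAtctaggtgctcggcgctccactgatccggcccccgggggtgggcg
RPE: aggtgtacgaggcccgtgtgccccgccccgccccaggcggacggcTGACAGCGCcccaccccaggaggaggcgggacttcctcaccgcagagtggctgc
IDH1: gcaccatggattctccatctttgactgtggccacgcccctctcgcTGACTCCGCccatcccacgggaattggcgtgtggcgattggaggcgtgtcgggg

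A match of this kind is a description of letters and does not show that a factor binds there. TGATGNAA, a core shared by sites of ATF4 and its partners in amino acid starvation, was found in 3.62% of all windows and in 0 of the 8 windows of these genes, which says only that these letters are not in those windows.

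Without cysteine, PGLS rose and RPIA and TKT fell relative to complete medium, while PGD, RPE, TALDO1 and IDH1 did not pass the test. Values were compared as log2(normalized count + 1) with limma, and a gene was called where the p adjusted by Benjamini-Hochberg over the 29045 genes was 0.01 or less. The 3 called of 7 stand beside 15.9% of all genes tested, with 1 higher beside 7.39% and 2 lower beside 8.51%. The 29045 genes include many with far lower counts than these 7, and those enter every share and median of all genes given here. With the filter raised to a value of 50 in 3 libraries, 4878 of 21198 genes were called. The ranges of the groups did not overlap for 4 of the 7 genes, which holds for 46.9% of all genes tested. The median log2 fold change was -0.03 over the 7 genes and 0.00 over all genes tested, and the median of its absolute size was 0.17 against 0.27. With 2 libraries against 4, an exact permutation test of a single gene cannot give a p below 0.067, so calls rest on limma, which shares the spread across genes. The calls of RPIA and TKT needed both cysteine-free libraries. Without cysteine-free replicate 1 the log2 fold changes were 0.55 for PGLS, -0.51 for RPIA and -0.21 for TKT. Without replicate 2 they were 0.57, -0.50 and -0.21.

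In excess cysteine, RPIA, RPE, TALDO1 and PGD fell relative to complete medium, PGLS and IDH1 rose, and TKT did not pass the test. The 6 called of 7 stand beside 46.0% of all genes tested, with 2 higher beside 23.1% and 4 lower beside 22.9%. Of the genes that reached 50 in 3 libraries, 12408 of 21198 were called. Groups that did not overlap were found for 6 of the 7 genes and for 51.6% of all genes. The median log2 fold change was -0.16 over the 7 genes and 0.01 over all genes, and its median absolute size was 0.30 against 0.38. Each of the 6 genes whose groups did not overlap had an exact permutation p of 0.0286, the smallest that 4 libraries against 4 can give. When libraries were scaled to equal totals instead, the calls over all genes moved from 6721 higher and 6651 lower to 8409 higher and 5197 lower, and the median log2 fold change moved from -0.02 to 0.08 (genes with a mean of 100 or more). PGD and TKT are the genes of the 7 whose call in this comparison depended on that scaling. With equal totals over the genes outside mitochondrial DNA, 7 of the 7 genes were called, 3 higher and 4 lower, beside 13374 of all genes tested, 7285 higher and 6089 lower. PGD passed only narrowly there, at -0.12 (limma adjusted p = 0.00999). Of the 3 genes whose promoter windows hold TGACNNNGC, PGD and RPE fell and IDH1 rose.

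Set directly against each other, cysteine-free and excess cells differed in 6 of the 7 genes, with PGD, PGLS, RPE and TALDO1 higher and TKT and IDH1 lower without cysteine. The 4 higher and 2 lower genes stand beside 23.6% and 24.4% of the genes tested, and 48.0% were called in either direction. Of the genes that reached 50 in 3 libraries, 12739 of 21198 were called. The groups did not overlap for 7 of the 7 genes, and for 66.0% of all genes tested. The 7 genes had a median log2 fold change of 0.26, and all genes one of -0.00. With equal totals, 5575 genes were higher and 8358 lower, against 6867 and 7087. None of the 7 genes changed 2-fold in any comparison (0 of 7 in each). The comparisons of cysteine-free and of excess medium with complete medium share the 4 complete libraries and are not independent of each other.

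**Figure D1:**
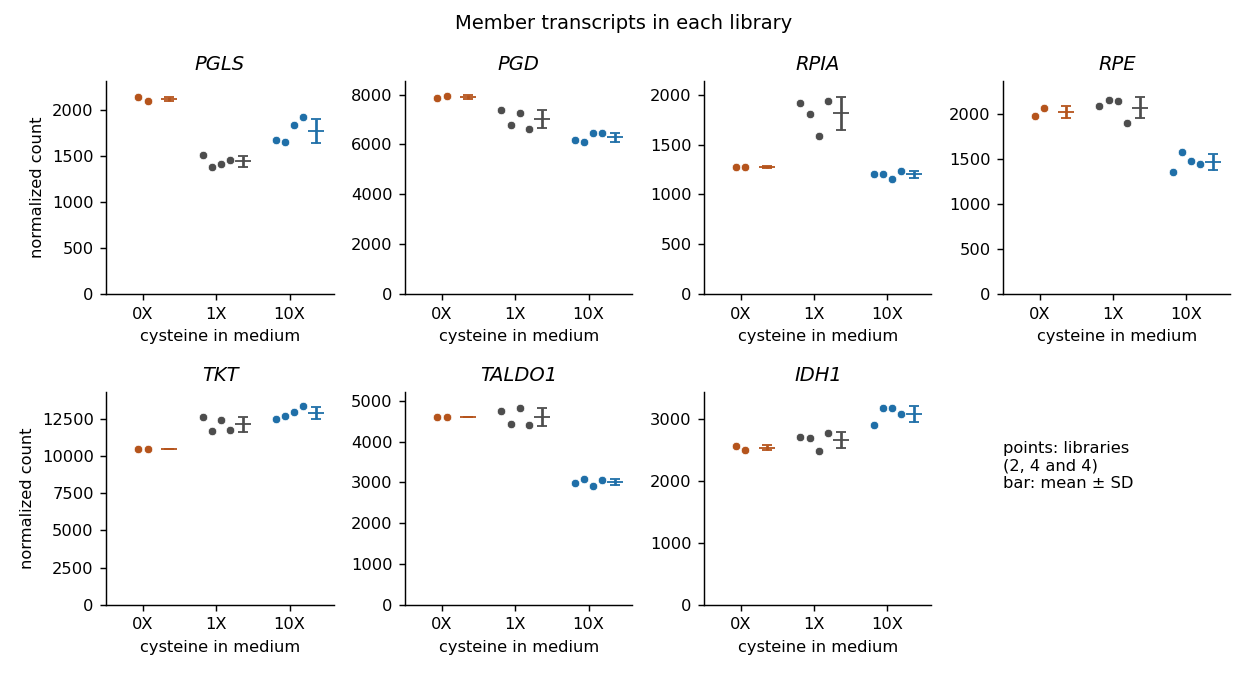
Normalized counts of the 7 genes (vertical axes, each from 0) by cysteine in the medium (horizontal axis). Each point is 1 of the 2, 4 and 4 libraries and the bar beside it is the mean ± SD. PGLS was lowest at 1X, RPIA highest at 1X, and TALDO1 stood at means of 4608 and 4598 at 0X and 1X and 3008 at 10X.

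PGLS (ENSG00000130313) encodes the lactonase that opens the ring of the sugar lactone of the oxidative branch to give 6-phosphogluconate. The gene lies on chromosome 19 from 17511636 to 17521288 on the plus strand of GRCh38, and its canonical transcript has 5 exons and 1008 bases. Its normalized count was 2143 and 2108 in the cysteine-free libraries. In complete medium it was 1514, 1380, 1422 and 1462. In excess medium it was 1677, 1655, 1838 and 1934. No library of one medium overlapped those of another, and complete medium had the lowest values.

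The mean of PGLS was 2126 ± 25.0 (SD, n = 2) without cysteine, 1444 ± 57.0 (SD, n = 4) in complete medium and 1776 ± 133 (SD, n = 4) in excess. It was 47.2% higher without cysteine than in complete medium, or a log2 difference of 0.56 (standard error 0.067, limma adjusted p = 5.89e-05), and 21.8% of the genes tested had a larger absolute change. In excess medium it rose by 23.0%, with a log2 fold change of 0.30 (limma adjusted p = 3.41e-04). It is the only one of the 7 genes called higher on both sides of the usual supply. Directly compared, it was higher without cysteine than in excess by 0.26 on the log2 scale (limma adjusted p = 5.01e-04). That difference missed the threshold when libraries were scaled to equal totals, at 0.18 (limma adjusted p = 0.0103), and an exact permutation test gave p = 0.133 for it. The lncRNA PGLS-DT lies on the opposite strand and shares 254 of the 2840 exon bases of PGLS. It had means of 392, 350 and 396 at 0X, 1X and 10X and passed the test in none of the 3 comparisons, with limma adjusted p of 0.281, 0.0697 and 0.917 for 0X against 1X, 10X against 1X and 0X against 10X.

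PGD (ENSG00000142657) encodes 6-phosphogluconate dehydrogenase, which releases carbon dioxide and forms NADPH and ribulose 5-phosphate. It spans positions 10398592 to 10420511 of chromosome 1 on the plus strand, with a canonical transcript of 13 exons and 2268 bases. The cysteine-free libraries held 7856 and 7945 normalized counts. The complete libraries held 7377, 6791, 7262 and 6630. The excess libraries held 6193, 6093, 6447 and 6438. Its libraries fell in the order of cysteine-free above complete above excess, with no overlap between neighbouring groups.

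Only part of this order passed the test. The means were 7901 ± 62.5 (SD, n = 2), 7015 ± 361 (SD, n = 4) and 6293 ± 178 (SD, n = 4). Between cysteine-free and complete medium the log2 fold change of PGD was 0.17 (95% interval 0.05 to 0.29, limma adjusted p = 0.0345), past the threshold only with other scalings, at 0.20 with equal totals, 0.21 with equal totals over genes outside mitochondrial DNA and 0.24 with quantile normalization. PGD fell by 10.3% in excess medium, or a log2 difference of -0.16 (standard error 0.043, limma adjusted p = 4.89e-03). This call was lost with equal totals, at -0.050 (limma adjusted p = 0.242), and with quantile normalization, at -0.090 (limma adjusted p = 0.0344). It was also lost without complete replicate 1 or 3, at -0.13 (limma adjusted p = 0.0180) and -0.14 (limma adjusted p = 0.0102), and without excess replicate 1 or 2, at -0.15 (limma adjusted p = 0.0162) and -0.14 (limma adjusted p = 0.0215). Cysteine-free exceeded excess medium by 25.5%, or 0.33 on the log2 scale (standard error 0.039, limma adjusted p = 1.02e-07). Its processed pseudogene PGDP1 had 0.154% of the mean of PGD.

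RPIA (ENSG00000153574) encodes the isomerase that turns ribulose 5-phosphate into ribose 5-phosphate, the sugar of nucleotides. The gene occupies 88691673 to 88750929 of chromosome 2 on the plus strand, with 9 exons and 1813 bases in its canonical transcript. Its normalized count was 1279 and 1271 without cysteine. The complete libraries gave 1919, 1807, 1585 and 1939. The excess libraries gave 1203, 1209, 1157 and 1231. Complete medium stood above both other media in every library, and complete replicate 3 was the lowest of its group.

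RPIA fell by 29.7% without cysteine and by 33.8% in excess, each against complete medium. The means were 1275 ± 6.02 (SD, n = 2), 1813 ± 163 (SD, n = 4) and 1200 ± 31.1 (SD, n = 4) in the order of rising cysteine. For cysteine-free against complete medium the log2 fold change was -0.50 (standard error 0.083, limma adjusted p = 6.31e-04). With a single cysteine-free library it kept its size but not its call, at -0.51 (limma adjusted p = 0.0190) without replicate 1 and -0.50 (limma adjusted p = 0.0218) without replicate 2. For excess against complete medium it was -0.59 (standard error 0.062, limma adjusted p = 4.03e-07). The libraries of these 2 media did not overlap with each other, but the difference of 0.09 on the log2 scale (95% interval -0.03 to 0.20) did not pass the test, with a limma adjusted p of 0.194.

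RPE (ENSG00000197713) encodes the epimerase that turns ribulose 5-phosphate into xylulose 5-phosphate, the partner substrate of transketolase. It lies at 210002565 to 210022260 of chromosome 2 on the plus strand, and the canonical transcript has 6 exons and 3180 bases. Without cysteine the normalized count was 1975 and 2072. In complete medium the libraries held 2093, 2154, 2148 and 1901. In excess medium they held 1356, 1575, 1480 and 1450. Cysteine-free and complete libraries overlapped, and all excess libraries were below both.

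Mean RPE was 2023 ± 68.7 (SD, n = 2), 2074 ± 119 (SD, n = 4) and 1465 ± 90.5 (SD, n = 4). The difference between cysteine-free and complete medium was -0.03 on the log2 scale, with a 95% interval of -0.18 to 0.12 and a limma adjusted p of 0.754. In excess medium RPE fell by 29.4%, or a log2 difference of -0.50 (standard error 0.058, limma adjusted p = 1.13e-06). Cysteine-free medium exceeded excess by 0.47 on the log2 scale (limma adjusted p = 2.06e-07). KANSL1L, a gene on the opposite strand, shares 840 of the 3523 exon bases of RPE, which is 23.8%, and a read in the shared bases cannot be assigned without its strand. KANSL1L had means of 762, 765 and 752 in the 3 media and was called in none of the comparisons (limma adjusted p of 0.996, 0.845 and 0.816). The close copy RPEL1 had a mean of 28.2, or 1.55% of the mean of RPE.

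TKT (ENSG00000163931) encodes transketolase, the thiamine-dependent enzyme that links the pathway to glycolytic intermediates. It lies on the minus strand of chromosome 3 from 53224712 to 53256052, with 14 exons and 2996 bases in the canonical transcript. The cysteine-free libraries had 10480 and 10459 normalized counts. Those from complete medium had 12619, 11669, 12445 and 11763. Those from excess medium had 12472, 12695, 12993 and 13370. The cysteine-free libraries were the lowest of the 10, and the complete and excess libraries overlapped.

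TKT fell by 13.6% without cysteine, from 12124 ± 478 (SD, n = 4) to 10469 ± 15.5 (SD, n = 2), or a log2 difference of -0.21 (standard error 0.050, limma adjusted p = 6.75e-03). The call was lost without cysteine-free replicate 1 or 2, at -0.21 both times (limma adjusted p = 0.0758 and 0.0831), and without complete replicate 1 or 2, at -0.19 (limma adjusted p = 0.0164) and -0.23 (limma adjusted p = 0.0139). The mean in excess medium was 12882 ± 389 (SD, n = 4). Against complete medium this was 0.09 higher on the log2 scale (95% interval 0.01 to 0.17, limma adjusted p = 0.0582), not called as deposited but called with equal totals at 0.19, with equal totals outside mitochondrial DNA at 0.13 and with quantile normalization at 0.21. Cysteine-free was 18.7% lower than excess medium, or a log2 difference of -0.30 (standard error 0.037, limma adjusted p = 1.64e-07). The related genes TKTL1 and TKTL2 had 0.0735 and 0.0209% of the mean of TKT.

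TALDO1 (ENSG00000177156) encodes transaldolase, which works with transketolase in the exchange of carbon units between sugar phosphates. The gene is on chromosome 11 from 747415 to 765012 on the plus strand, and its canonical transcript has 8 exons and 1199 bases. The normalized count was 4608 in each of the 2 cysteine-free libraries. It was 4750, 4418, 4828 and 4397 in complete medium. It was 2986, 3073, 2911 and 3061 in excess medium. The cysteine-free values lay within the range of the complete ones, and all excess values were below them.

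TALDO1 had the largest log2 fold change of the 7 genes in cysteine-free against excess medium, and in excess against complete medium it and RPIA, at -0.59, lay within their standard errors of each other. It fell by 34.6% in excess medium, from 4598 ± 223 (SD, n = 4) to 3008 ± 74.8 (SD, n = 4), or a log2 difference of -0.61 (standard error 0.044, limma adjusted p = 4.03e-09), and 30.4% of the genes tested had a larger absolute change. Between cysteine-free and complete medium the log2 fold change was 0.00, with a 95% interval of -0.12 to 0.13 (limma adjusted p = 0.966). The cysteine-free mean of TALDO1 was 53.2% above that in excess medium, or 0.62 on the log2 scale (limma adjusted p = 1.01e-11). TALDO1 and TKT, partners in the same exchange, are set against each other within libraries by their ratio.

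IDH1 (ENSG00000138413) encodes the isocitrate dehydrogenase of the cytosol and peroxisomes, which forms NADPH and 2-oxoglutarate. It lies on the minus strand of chromosome 2 from 208236229 to 208266074, with 10 exons and 2318 bases in the canonical transcript. The cysteine-free libraries held 2565 and 2502 normalized counts. The complete libraries held 2700, 2681, 2480 and 2761. The excess libraries held 2896, 3164, 3165 and 3081. Excess medium had the 4 highest values, and the other media overlapped.

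The mean of IDH1 rose by 15.9% in excess medium, from 2656 ± 122 (SD, n = 4) to 3076 ± 127 (SD, n = 4), or a log2 difference of 0.21 (standard error 0.048, limma adjusted p = 1.15e-03). Cysteine-free medium, with 2533 ± 44.6 (SD, n = 2), differed from complete medium by -0.07 on the log2 scale (95% interval -0.20 to 0.07, limma adjusted p = 0.469). IDH1 was 17.7% lower without cysteine than in excess, or a log2 difference of -0.28 (limma adjusted p = 2.09e-05). Its antisense gene IDH1-AS1 shares 94 of 4699 exon bases with it and had means of 235, 238 and 183 at 0X, 1X and 10X. IDH1-AS1 fell in excess against complete medium, by 0.37 on the log2 scale (limma adjusted p = 5.47e-03), the opposite direction to IDH1.

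**Figure D2:**
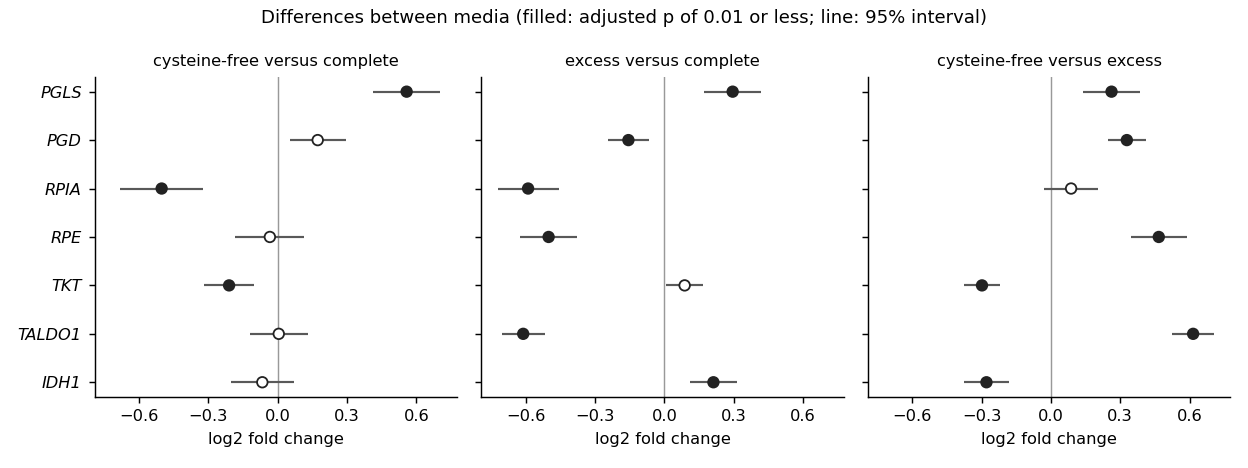
Log2 fold changes of the 7 genes (horizontal axis) in the 3 comparisons, with lines for the 95% interval of limma and filled points for an adjusted p of 0.01 or less. Filled points number 3 in the left panel and 6 in each of the others, and they lie on both sides of 0 in every panel.

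Compared gene with gene, levels have to be set per length, here as the normalized count per kilobase of the canonical transcript. In complete medium TKT stood highest at 4047 ± 160 (SD, n = 4) and RPE lowest at 652 ± 37.4 (SD, n = 4), a span of 6.20-fold. TALDO1 followed TKT at 3835 with overlapping libraries, and PGD at 3093, PGLS at 1433, IDH1 at 1146 and RPIA at 999.7 did not overlap with their neighbours in this order. Without cysteine TALDO1 was highest at 3843 per kilobase, and TKT at 3494 and PGD at 3483 overlapped. In excess medium the order was TKT at 4300, PGD at 2775, TALDO1 at 2508, PGLS at 1762, IDH1 at 1327, RPIA at 662 and RPE at 461, with no overlap between neighbours and a span of 9.33-fold. TALDO1 thus stood above PGD in complete medium and below it in excess. On this scale PGLS, IDH1, RPIA and RPE held the last 4 places in that order in each medium. All annotated exons together span 2840 bases for PGLS, 4699 for IDH1 and 3523 for RPE. Their canonical transcripts have 1008, 2318 and 3180 bases. Reads were counted on whole genes, so the order holds for the canonical length only and can change with another length.

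**Figure D3:**
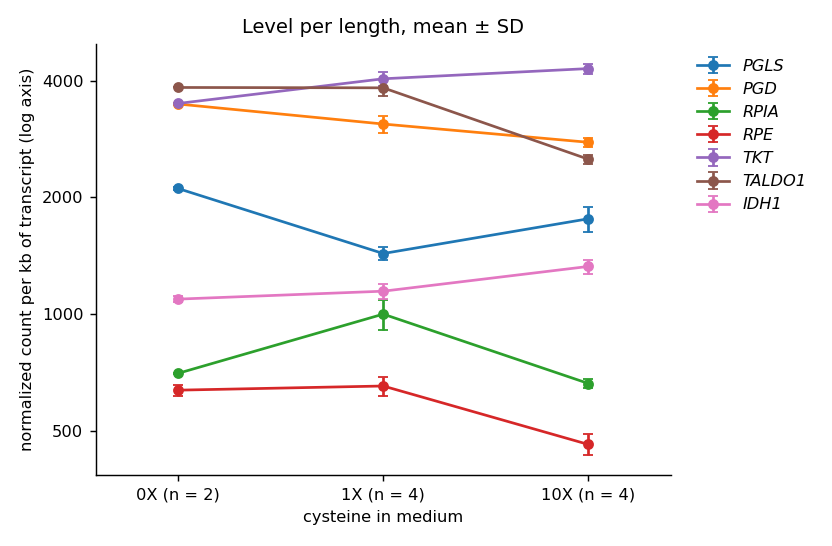
Normalized count per kilobase of canonical transcript (vertical log axis) for the 7 genes at 0X, 1X and 10X cysteine, as mean ± SD of 2, 4 and 4 libraries. On this scale TALDO1 crosses below PGD between 1X and 10X, and RPE is lowest throughout.

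Ratios within a library do not depend on the single factor by which each library was scaled. The ratio of TALDO1 to TKT normalized counts was 0.440 ± 0.00062 (SD, n = 2) without cysteine, 0.379 ± 0.00617 (SD, n = 4) in complete medium and 0.234 ± 0.00853 (SD, n = 4) in excess. The 3 groups did not overlap, with 0.374 to 0.388 in complete medium and 0.224 to 0.242 in excess. PGLS relative to PGD, its successor in the oxidative branch, was 0.269 ± 0.00530 (SD, n = 2) without cysteine, 0.206 ± 0.0103 (SD, n = 4) in complete medium and 0.282 ± 0.0139 (SD, n = 4) in excess. Complete medium was below both others in every library, while the range without cysteine, 0.265 to 0.273, overlapped that in excess, 0.271 to 0.300.

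RPIA and RPE act on the same substrate, and their ratio was 0.630 ± 0.0244 (SD, n = 2) without cysteine, 0.878 ± 0.120 (SD, n = 4) in complete medium and 0.821 ± 0.0564 (SD, n = 4) in excess. The ratio was lowest without cysteine, where RPIA fell and RPE was not called, and the complete and excess libraries overlapped. The summed counts of PGLS and PGD relative to those of the 4 non-oxidative genes were 0.546 without cysteine, 0.410 in complete medium and 0.435 in excess. These sums are not set per length. PGD and TKT weigh most in them, with means of 7015 and 12124 in complete medium. The cysteine-free libraries stood above all others, and complete and excess medium nearly met, at 0.416 for the highest complete and 0.418 for the lowest excess library.

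**Figure D4:**
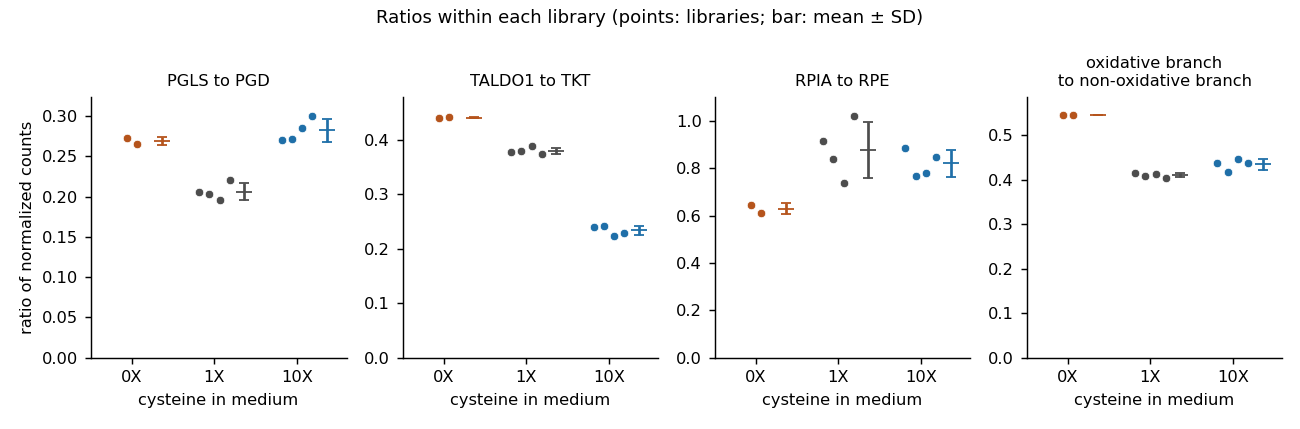
Ratios of normalized counts within each library (vertical axes from 0) by cysteine in the medium, with points for libraries and bars for the mean ± SD. TALDO1 to TKT takes 3 separate levels from 0.440 to 0.234, and the ratio of the summed counts of the oxidative to the non-oxidative genes is highest at 0X.

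A list of 13 other genes, of the pathway or of reactions next to it, held 11 with enough counts to be tested. It does not hold every remaining gene of the pathway. Against complete medium, 3 were higher and 1 lower without cysteine, and 1 was higher and 5 lower in excess, with median log2 fold changes of -0.01 and -0.29 beside 0.00 and 0.01 for all genes. Over all genes tested, 7.39% were higher and 8.51% lower without cysteine, and 23.1% higher and 22.9% lower in excess. Directly compared, 6 were higher and 0 lower without cysteine than in excess, beside 23.6% higher and 24.4% lower over all genes tested. The median log2 fold change in that comparison was 0.35 against -0.00 for all genes. H6PD, the hexose-6-phosphate dehydrogenase of the endoplasmic reticulum, rose without cysteine from 1223 ± 35.9 (SD, n = 4) to 2357 ± 22.2 (SD, n = 2), or a log2 difference of 0.95 (limma adjusted p = 6.80e-07). It rose to 1500 ± 58.9 (SD, n = 4) in excess medium, by 0.29 on the log2 scale (limma adjusted p = 1.18e-04). Like PGLS it was therefore lowest in complete medium, and it stood higher without cysteine than in excess by 0.65 on the log2 scale (limma adjusted p = 1.24e-10).

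RBKS, the ribokinase that phosphorylates free ribose, had 149 ± 10.1 (SD, n = 2), 60.1 ± 8.01 (SD, n = 4) and 26.2 ± 3.15 (SD, n = 4) normalized counts at 0X, 1X and 10X. Its log2 fold change was 1.30 without cysteine (limma adjusted p = 4.19e-04) and -1.17 in excess (limma adjusted p = 8.80e-05). The first call was lost without cysteine-free replicate 1, at 1.23 (limma adjusted p = 0.0191), or 2, at 1.37 (limma adjusted p = 0.0128). PRPS1, which makes phosphoribosyl pyrophosphate from ribose 5-phosphate, fell by 0.29 without cysteine (limma adjusted p = 1.74e-03) and by 0.77 in excess (limma adjusted p = 1.13e-10), both on the log2 scale. Without cysteine-free replicate 1 or 2 its first call was lost, at -0.25 (limma adjusted p = 0.0521) and -0.32 (limma adjusted p = 0.0212). PRPS2, of the same function, fell by 0.52 on the log2 scale in excess (limma adjusted p = 5.55e-08). DERA, a deoxyribose-phosphate aldolase, rose by 0.35 on the log2 scale without cysteine (limma adjusted p = 5.80e-03). Leaving out either cysteine-free library or complete replicate 1 or 2 ended that call, with limma adjusted p of 0.0485, 0.0833, 0.0193 and 0.0116 and log2 fold changes of 0.37, 0.33, 0.34 and 0.38.

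A further list held 11 other genes, all tested, that were chosen for a possible part in the supply of NADPH or NADP+. Against complete medium 3 rose and 0 fell without cysteine, and 4 rose and 4 fell in excess, with median log2 fold changes of 0.24 and 0.08 beside 0.00 and 0.01 for all genes, of which 15.9% and 46.0% were called. The largest rises called without cysteine were those of mitochondrial folate enzymes. ALDH1L2, the mitochondrial formyltetrahydrofolate dehydrogenase, rose from 3559 ± 90.4 (SD, n = 4) to 10247 ± 159 (SD, n = 2) without cysteine and to 8461 ± 293 (SD, n = 4) in excess. Its log2 fold changes were 1.53 (limma adjusted p = 1.43e-09) and 1.25 (limma adjusted p = 1.35e-13). MTHFD2, which oxidizes methylenetetrahydrofolate, rose by 0.97 (limma adjusted p = 5.84e-08) and 1.08 (limma adjusted p = 6.10e-13) on the log2 scale in the same comparisons. Which coenzyme MTHFD2 used in these cells was not measured, so its rise cannot be read as one of NADPH supply.

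The cytosolic folate enzyme MTHFD1 had 14715 ± 770 (SD, n = 2) normalized counts without cysteine, 14270 ± 405 (SD, n = 4) in complete medium and 10363 ± 192 (SD, n = 4) in excess, where it fell by 0.46 on the log2 scale (limma adjusted p = 5.93e-09). The cytosolic malic enzyme ME1 rose in excess from 1194 ± 48.6 (SD, n = 4) to 2466 ± 56.8 (SD, n = 4), or a log2 difference of 1.05 (limma adjusted p = 1.76e-11). Without cysteine ME1 stood at 1391 ± 52.6 (SD, n = 2), with a limma adjusted p of 0.0367. IDH2, the mitochondrial counterpart of IDH1, went from 2808 ± 125 (SD, n = 2) at 0X through 2034 ± 55.6 (SD, n = 4) at 1X to 1521 ± 97.9 (SD, n = 4) at 10X. It rose by 0.46 on the log2 scale without cysteine (limma adjusted p = 1.32e-04), a call lost without cysteine-free replicate 1 at 0.42 (limma adjusted p = 0.0106), and fell by 0.42 in excess (limma adjusted p = 3.48e-06). In excess medium the cytosolic IDH1 was thus called higher and the mitochondrial IDH2 lower.

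Further named genes of that list were ME3, MTHFD2L and NADK2. ME3, a mitochondrial malic enzyme, had 2 to 12 normalized counts in complete and 16 to 33 in excess medium, or a log2 difference of 1.81 (limma adjusted p = 1.99e-03) that lost its call without excess replicate 4, at 1.63 (limma adjusted p = 0.0120). At these low counts the value depended on the pseudocount, and ME3 stood at 1.01 on the log2 scale with a pseudocount of 10. MTHFD2L, a relative of MTHFD2, fell by 0.34 on the log2 scale in excess (limma adjusted p = 2.30e-03), a call lost without excess replicate 4 at -0.30 (limma adjusted p = 0.0113) and with equal totals at -0.23 (limma adjusted p = 0.0300). NADK2, the mitochondrial NAD kinase, was higher without cysteine than in excess by 0.36 on the log2 scale (limma adjusted p = 4.43e-06).

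Enzymes that spend NADPH formed a list of 12, of which 9 were tested. Without cysteine 0 rose and 3 fell, and in excess 3 rose and 5 fell, each against complete medium, with median log2 fold changes of -0.19 and -0.24. All genes tested had medians of 0.00 and 0.01, with 15.9% and 46.0% called. TXNRD1, the cytosolic thioredoxin reductase, rose in excess from 6231 ± 404 (SD, n = 4) to 20206 ± 353 (SD, n = 4), or a log2 difference of 1.70 (limma adjusted p = 9.05e-15). NQO1, a quinone reductase, rose by 1.48 on the log2 scale (limma adjusted p = 4.62e-10). GSR, the glutathione reductase, rose in excess from 3160 ± 49.9 (SD, n = 4) to 4028 ± 46.7 (SD, n = 4), by 0.35 on the log2 scale (limma adjusted p = 6.87e-07). Without cysteine GSR was 2669 ± 42.5 (SD, n = 2), a fall of 0.24 on the log2 scale (limma adjusted p = 5.46e-03). That call was lost without cysteine-free replicate 1 or 2, at -0.26 (limma adjusted p = 0.0482) and -0.23 (limma adjusted p = 0.0802), and without complete replicate 1 or 2, at -0.24 both times (limma adjusted p = 0.0156 and 0.0207). TXNRD1, NQO1 and GSR were the 3 called rises in excess, while other reductases of the list, such as CBR1, fell. CBR3 was higher in excess by 0.36 on the log2 scale but was not called (limma adjusted p = 0.0123). With equal totals CBR3 was called, at 0.47 (limma adjusted p = 2.20e-03). What sets these reductases apart was not tested.

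The largest fall of that list in excess was that of FASN. FASN, the fatty acid synthase, went from 42015 ± 975 (SD, n = 4) to 19905 ± 911 (SD, n = 4), or a log2 difference of -1.08 (limma adjusted p = 2.92e-13). FASN also fell by 0.33 on the log2 scale without cysteine (limma adjusted p = 1.47e-04), a call lost without cysteine-free replicate 2 at -0.29 (limma adjusted p = 0.0148).

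The carbonyl reductase CBR1 fell by 0.44 without cysteine (limma adjusted p = 1.47e-04) and by 0.75 in excess (limma adjusted p = 2.06e-09), both on the log2 scale. The first of these calls was lost without cysteine-free replicate 1, at -0.39 (limma adjusted p = 0.0108). Its relative CBR3 had a log2 fold change of -0.60 without cysteine against excess (limma adjusted p = 4.51e-04). AKR1B1, an aldose reductase, fell by 0.44 on the log2 scale in excess (limma adjusted p = 1.97e-07), and BLVRB, a biliverdin reductase, by 0.42 (limma adjusted p = 1.16e-04).

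**Figure D5:**
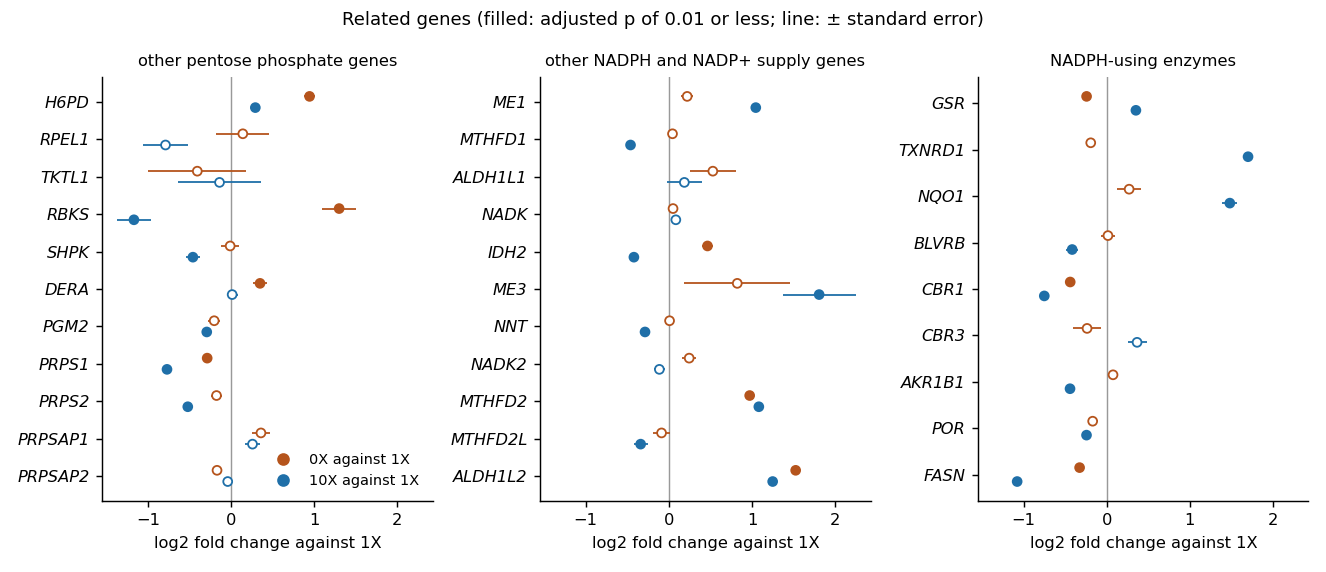
Log2 fold changes against 1X (horizontal axes) of the tested genes of 3 related lists, with lines for ± the standard error and filled points for an adjusted p of 0.01 or less, at 0X and at 10X. At 10X TXNRD1, NQO1 and ME1 stand at 1.70, 1.48 and 1.05, and ALDH1L2 and MTHFD2 have filled points to the right of 0 at both amounts of cysteine.

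Across the 10 libraries each of the 7 genes had close companions in level, found by Pearson's r of log2(normalized count + 1) among about 14550 genes with a mean of 100 or more. These correlations describe 10 libraries that fall into 3 media and share their scaling, and they carry no test. The nearest gene was RHBDD2 for PGLS (r = 0.985), UBL7 for PGD (r = 0.989), RITA1 for RPIA (r = 0.996), NDC1 for RPE (r = 0.991), NCAPH2 for TKT (r = 0.973), PARP1 for TALDO1 (r = 0.996) and MON1B for IDH1 (r = 0.991). RITA1 had means of 1140, 1655 and 1081 at 0X, 1X and 10X, the same high point in complete medium as RPIA. RHBDD2 had 2016, 1433 and 1718, with its low point in complete medium as for PGLS. PARP1 had 52275, 51818 and 35049, near level from 0X to 1X and lower at 10X as for TALDO1. None of the nearest genes was itself among the 7.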

How the data were processed

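The deposited table holds a signal value per gene and library. The authors aligned reads to GRCh38 with STAR 2.7.10b and counted them on Ensembl genes (the study's methods name featureCounts, the submitters' processing notes HTSeq). DESeq2 size factors were then used to scale the libraries. The study's methods say that reads over several genes were discarded. The Ensembl release and the strand setting are not given in the sources used here. All values were whole multiples of 1 read (within 0.01 reads), so reads were recovered, and depth ranged from 34836014 to 61654861 reads on genes. Symbols, exons and canonical transcripts came from GENCODE 44, in which 61463 of 78894 identifiers were found.

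The filter kept the 29045 genes that reached 10 in 3 or more of the 10 libraries. For each comparison, log2(value + 1) of its groups alone was fitted by limma 3.58.1 under R 4.3.3 (lmFit, then eBayes with trend). Tests were 2-sided, p-values were adjusted by Benjamini-Hochberg across the kept genes, and the threshold was 0.01. Fold changes are on that scale. Exact permutation tests used the absolute difference of mean log2 values. Replicates differed by more than sampling noise, with a chi-square per degree of freedom of 3.45 to 14.1. As alternatives, the pseudocount was set to 0.5 or 10, the filter was dropped or raised to 50, and libraries were scaled to equal totals (all genes, or those outside mitochondrial DNA) or by quantiles. Further ones were a fit of all groups together, a replicate block, the recovered reads in edgeR 4.0.16 or DESeq2 1.42.0, and leaving out each library.

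The 7 genes and the related lists were chosen with earlier results of these data known. The lists do not hold every gene of their pathways, and some genes are not reported here. From each list, the called genes with the 3 largest increases and 3 largest decreases in each comparison were named. The nearest genes by correlation were ranked for each of the 7, and the first is named. The procedure was tested on simulated data with 200 changed genes, all with a mean of 100 or more. In 100 of them the change was 0.5 on the log2 scale. Of these it called 48 for cysteine-free against complete medium, 81 for excess against complete and 89 for cysteine-free against excess. Of 100 genes changed by 1 it called 92, 99 and 99. Among the unchanged genes it called 2, 4 and 10. Far fewer genes were changed there than were called in the data, and the adjustment of p depends on that share. The simulated counts therefore do not give the sensitivity in the data.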

Additional observations from a re-analysis of the deposited data

Results flagged for a closer look

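In the groups of 4 libraries, 56 sets of values of the named genes were examined for a library whose gap to its nearest neighbour was so wide a share of the group's range that it exceeded Dixon's 95% critical value, as chance does in about 1 of 20 groups, or about 3 here. It was exceeded in 4, and in 0 of the groups of the 7 genes themselves. IDH2 in complete replicate 2 had a normalized count of 1951 against 2061 to 2063 in the other libraries of the group. MTHFD1 stood apart in complete replicate 1, at 14872 against 14033 to 14142, and in excess replicate 1, at 10078 against 10424 to 10487. PRPS2 in excess replicate 2 had 1833 against 1896 to 1902.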

How the results depend on the processing

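Calls between cysteine-free and complete medium varied with the filter and with single libraries: genes called numbered 4618, 738 without a filter and 978 to 6300 when a library was left out, and calls among the 7 genes numbered 3, 1 without a filter and 1 to 3 when a library was left out. Without a filter, RPIA was at -0.50 (limma adjusted p = 0.0485) and TKT at -0.21 (limma adjusted p = 0.0612) for that comparison, PGD at -0.16 for excess against complete medium (limma adjusted p = 0.0247) and PGLS at 0.26 for cysteine-free against excess medium (limma adjusted p = 0.0612), none of them called, and the genes called in the last comparison fell from 13954 to 8864. With equal totals PGD was at 0.20 (called) and -0.050 (not called) against complete medium without cysteine and in excess, TKT at 0.19 in excess (called), and PGLS at 0.18 between cysteine-free and excess medium (not called). With equal totals outside mitochondrial DNA, PGD was at 0.21 without cysteine and TKT at 0.13 in excess, both called, and RPE without cysteine turned from -0.03 to 0.00081. With quantile normalization PGD was at 0.24 (called) and -0.090 (not called), and TKT at 0.21 in excess (called). Leaving out 1 library gave -0.57 to -0.47 for RPIA, -0.076 to 0.00041 for RPE, -0.23 to -0.19 for TKT and -0.017 to 0.028 for TALDO1 without cysteine, and -0.18 to -0.13 for PGD in excess. MTHFD1 without cysteine ranged from -0.0097, without cysteine-free replicate 2, to 0.097, BLVRB without cysteine, at 0.01, from -0.028, without complete replicate 3, to 0.045 (-0.023 with quantile normalization, -0.0021 with a replicate block), and DERA in excess from -0.030, without excess replicate 2, to 0.041. The cause of these shifts was not tested. The labels do not say that replicate numbers pair libraries. The deviations of same-numbered libraries correlated at -0.116 to 0.103 between groups (in excess and complete medium 5 of 8 libraries correlated best with their own number). A replicate block gave 6532, 13392 and 12393 genes called and 3, 6 and 6 of the 7 genes for the 3 comparisons. With the cysteine-free group, the block fits rest on replicates 1 and 2 alone. They leave little residual spread per gene, so their calls lean on spread shared across genes. DESeq2 called 5435, 13816 and 13126 genes and edgeR 4941, 13525 and 13834, with 3, 6 and 6 of the 7 genes under both. For 21 related genes, 1059 of 1110 alternative values kept their direction and side of the threshold, 31 lost the call, 15 gained it and 5 reversed.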
